A study of Mus musculus with 7 samples.

Results

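The genes described here are 10 interferon-inducible GTPases of the mouse, 6 guanylate-binding proteins (Gbp2, Gbp3, Gbp4, Gbp5, Gbp7 and Gbp8) and 4 immunity-related GTPases (Irgm1, Irgm2, Igtp and Iigp1). They were taken by gene symbol from the 28666 genes of the deposited table, and each symbol matched 1 gene. Bone marrow cells of female C57BL/6 mice aged 6 to 8 weeks were grown into bone marrow-derived dendritic cells (BMDCs) over 7 days with GM-CSF at 20 ng/mL and IL-4 at 10 ng/mL, and were then co-cultured in a Transwell system with the mouse colon carcinoma line MC38. The results text of the study gives 24 h of DON, a glutamine antagonist, before immature cells (3 libraries) and mature cells (4 libraries) were separated by flow sorting, and a figure legend names MC38 cells given DMSO or DON at 5 μM. Both groups share the co-culture with MC38 cells. The labels do not say whether each library came from a culture with DMSO or with DON. Any difference in treatment between the groups could therefore not be told apart from the mature state. The labels also give neither the markers of the sort nor whether libraries came from separate cultures. The p-values thus measure the spread between these libraries, which may be technical.

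Guanylate-binding proteins (GBPs) are large GTPases that interferons, interferon-γ above all, switch on in macrophages, dendritic cells and many other cells. They assemble on vacuoles that hold pathogens and on bacteria in the cytosol, and several of them promote inflammasome activation. The immunity-related GTPases (IRGs) act beside them: effectors such as the product of Iigp1 load onto the vacuole and disrupt it, and the regulators encoded by Irgm1, Irgm2 and Igtp sit on the membranes of the cell's own compartments and keep the effectors inactive there. Interferon signals reach these genes through transcription factors that bind GAS elements and interferon-stimulated response elements (ISREs) in their promoters.

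Total counts ran from 54846746 to 67973086 per library. Dendritic markers were present in every library, with a sum over 8 genes of 10300 to 11100 CPM in immature and 13400 to 19200 CPM in mature cells. CPM are counts scaled to a common total after TMM normalization. Of those 8, Flt3 was at 0.31 to 0.647 CPM and Cd209a at 0.288 to 0.716 CPM in immature cells, and Cd209a was at 0 to 0.112 CPM in mature cells. Most of the dendritic sum was Cd74, at 6420 to 6850 CPM in immature and 7410 to 11500 CPM in mature libraries. Itgax went the other way from the sum, at 1290 to 1460 and 874 to 1140 CPM. By the criteria given below, 3 of the 8 were called higher (Zbtb46, Flt3 and Ccr7) and 1 lower (Cd209a). Ccr7 is also on the mature list that follows. All 8 genes of a list of mature dendritic cells were higher in mature libraries (sum 1290 to 1370 against 12500 to 15400 CPM), and all 8 macrophage markers were lower (2000 to 2060 against 354 to 417 CPM). The mature list holds Cd80 and Cd86, whose products define mature cells in other flow cytometry of the study. If the sort used them too, their rise would follow from the sort. In RNA of bulk cells, fewer cells of a type and less RNA per cell cannot be told apart. Neutrophil markers summed to 12.3 to 15.7 CPM in immature and 19.4 to 27.6 CPM in mature libraries, epithelial markers to 70 to 77.5 and 59.2 to 69.9 CPM, and T and NK cell markers summed to at most 5.62 CPM and B cell markers to at most 1.36 CPM. Most of the neutrophil sum was Cxcr2, at 10.3 to 12.7 CPM in immature and 17.2 to 26.6 CPM in mature libraries. S100a8 went the other way, at 1.09 to 2.29 and 0.423 to 1.36 CPM. Most of the epithelial sum was Cdh1, at 50.7 to 57.8 and 47.3 to 54.2 CPM. Mature replicate 3 stood apart: the median chi-square per gene against the other mature libraries was 17.7 to 25.6, against 4.26 to 5.26 among those 3 libraries. Of the 10 genes, its level differed from the mean of those 3 by at most 0.46 on the log2 scale for all but Iigp1 (0.94). For Iigp1 that mean includes mature replicate 1 at 0.44 CPM. Mature replicates 2 and 4 were at 4.13 and 4.62 CPM, and mature replicate 3 was at 5.98 CPM. The 10 genes of a cardiac muscle list summed to 5.47 to 6.02 CPM in immature cells, 27.3 CPM in mature replicate 1 and 760 to 903 CPM in mature replicates 2, 3 and 4.

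The promoters of Gbp5, Gbp7, Gbp2 and Gbp3 are shown first, since these genes lie close together on chromosome 3 and had log2 fold changes of both signs. RefSeq promoters on GRCm38.p6 matched 7 of the 10 genes (Gbp5, Gbp7, Gbp3, Gbp2, Irgm1, Igtp and Irgm2), and Gbp4, Gbp8 and Iigp1 were not matched. The 250 bases before each transcription start are read 5′ to 3′ along the gene, and capitals mark letters of an ISRE (GAAA, any 2 bases, GAAA), a GAS element (TTC, any 3 bases, GAA) or an NF-kappa B site (GGGA, any base, TTTCC), on either strand. The Gbp5 window covers chr3:142496684-142496933, the Gbp7 window chr3:142530086-142530335, the Gbp2 window chr3:142620413-142620662 and the Gbp3 window chr3:142559794-142560043, all on the plus strand.
Gbp5: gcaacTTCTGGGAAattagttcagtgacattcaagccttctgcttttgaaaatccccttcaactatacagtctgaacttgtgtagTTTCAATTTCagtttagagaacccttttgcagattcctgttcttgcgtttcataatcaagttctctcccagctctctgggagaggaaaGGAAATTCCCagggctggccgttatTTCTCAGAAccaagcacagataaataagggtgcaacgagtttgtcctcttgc
Gbp7: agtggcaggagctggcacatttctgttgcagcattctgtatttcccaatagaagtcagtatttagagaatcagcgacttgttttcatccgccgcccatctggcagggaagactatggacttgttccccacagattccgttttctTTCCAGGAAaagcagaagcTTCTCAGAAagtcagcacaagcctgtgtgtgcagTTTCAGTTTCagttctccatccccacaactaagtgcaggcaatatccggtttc
Gbp2: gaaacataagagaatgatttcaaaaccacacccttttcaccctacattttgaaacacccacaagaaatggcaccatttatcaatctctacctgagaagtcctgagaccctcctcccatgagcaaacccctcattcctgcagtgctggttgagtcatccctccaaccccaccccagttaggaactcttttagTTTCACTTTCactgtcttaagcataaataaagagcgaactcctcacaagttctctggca
Gbp3: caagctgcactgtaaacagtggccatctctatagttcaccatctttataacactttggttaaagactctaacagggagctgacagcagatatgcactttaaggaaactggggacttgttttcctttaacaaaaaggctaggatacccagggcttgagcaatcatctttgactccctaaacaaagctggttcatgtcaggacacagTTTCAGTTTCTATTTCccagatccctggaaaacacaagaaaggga
The ISRE letters were found before the start of each of the 7 genes, in 7 of their 8 starts, against 2.98% of 32851 promoters of the genome. Gbp3 has a pair of overlapping matches and a second start without one. The ISRE match began 165 bases before the start in Gbp5, 53 in Gbp7 and 59 in Gbp2. GAS letters were found in 4 of the 7 genes (Gbp5, Gbp7, Igtp and Irgm2), against 7.02% of promoters. NF-kappa B letters were found in Gbp5 alone among the 7, 77 bases before its start, against 0.356% of promoters. The RefSeq start of Gbp5 lies inside the longer gene span of the deposited table. These matches describe letters in a window and do not show binding.

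Igtp, Irgm2 and the IRG genes Tgtp1, Tgtp2 and Gm12185 held a GAS element and an ISRE with 2 bases between them, and their windows are shown because the arrangement recurs within the IRG family. Capitals mark the GAS and ISRE letters, and 20 bases are given on each side.
Igtp: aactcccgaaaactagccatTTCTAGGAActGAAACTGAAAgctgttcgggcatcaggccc
Irgm2: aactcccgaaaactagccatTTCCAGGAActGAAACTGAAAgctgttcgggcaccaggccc
Tgtp1: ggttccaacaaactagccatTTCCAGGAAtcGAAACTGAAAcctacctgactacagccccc
Tgtp2: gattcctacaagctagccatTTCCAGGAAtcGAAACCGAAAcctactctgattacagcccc
Gm12185: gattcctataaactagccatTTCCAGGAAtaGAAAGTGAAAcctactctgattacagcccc
The windows are chr11:58199491-58199551 (Igtp) and chr11:58214882-58214942 (Irgm2) on the plus strand, and chr11:48992294-48992354 (Tgtp1), chr11:49064253-49064313 (Tgtp2) and chr11:48927228-48927288 (Gm12185) on the minus strand. Those of Irgm2, Tgtp1 and Gm12185 lie inside the gene spans of the deposited table. These spans run from 58199618 to 58222782, from 48985327 to 48994172 and from 48904656 to 48992226. This composite of the GAS letters, any 2 bases and the ISRE letters was chosen after the promoters had been read, and it occurred in 5 of 32851 promoters (0.0152%), those of these 5 genes. Of the genes that hold it, Tgtp1 was called higher in mature cells, with a log2 fold change of 1.40, and the other 4 were not called, at 0.33 for Tgtp2 (edgeR adjusted p = 0.106), -0.01 for Igtp (0.969), -0.37 for Irgm2 (0.0358) and -0.56 for Gm12185 (0.0787). Tgtp1 and Tgtp2 share most of their transcript sequence, so reads may be split between them.

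The level of each gene per library is given in FPKM, a unit scaled by gene length and sequencing depth, which allows genes to be set side by side. Gbp2 was the most abundant of the 10 in both states, at 89.9 ± 1.67 FPKM (SD, n = 3) in immature and 128 ± 10.3 FPKM (SD, n = 4) in mature cells, and Iigp1 the least abundant, at 0.167 ± 0.0306 and 0.607 ± 0.368 FPKM. In immature cells Gbp3 (22.0 FPKM), Gbp8 (17.7), Gbp7 (10.9), Igtp (7.81), Irgm1 (7.17), Irgm2 (6.20), Gbp5 (3.53) and Gbp4 (2.88) followed in that order of mean FPKM, and among neighbours in it only the libraries of Igtp and Irgm1 overlapped. In mature cells the order of mean FPKM after Gbp2 was Gbp8 (21), Gbp3 (18.1), Gbp5 (17), Igtp (8.35), Irgm1 (6.84), Gbp4 (5.48), Irgm2 (5.19) and Gbp7 (2.18). There the libraries of Gbp8 and Gbp3, of Gbp3 and Gbp5, of Igtp and Irgm1, of Irgm1 and Gbp4, and of Gbp4 and Irgm2 overlapped, so those neighbours were not separated by their spread. Gbp5 moved from rank 8 to rank 4, and Gbp7 from rank 4 to rank 9.

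**Figure D1:**
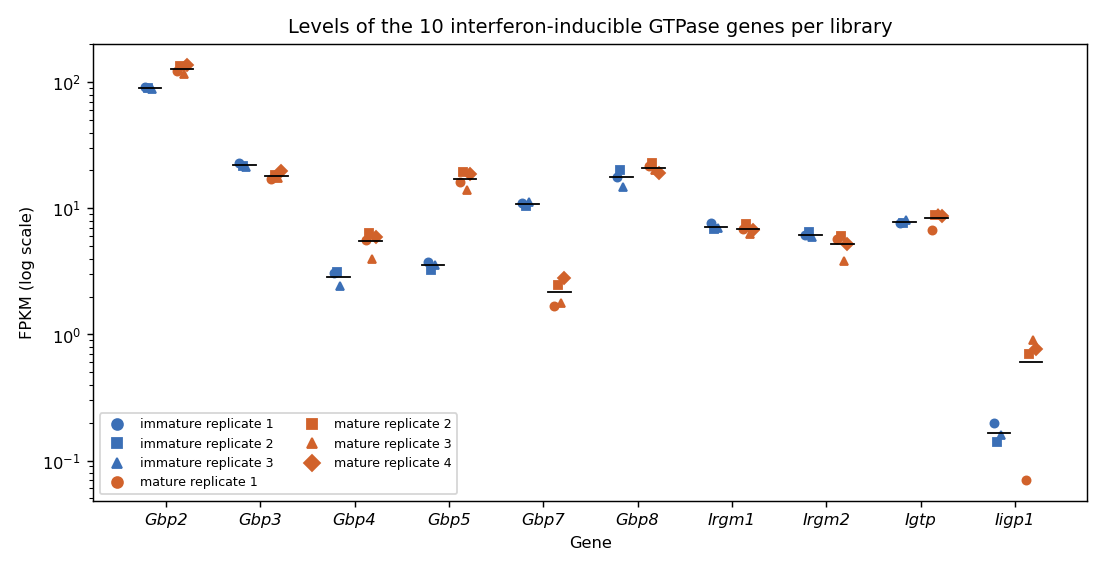
FPKM (log axis) of the 10 GTPase genes in each of 3 immature (blue) and 4 mature (orange) libraries, with symbols for replicates and a black line at the group mean. Gbp5 lies higher and Gbp7 lower in all 4 mature libraries than in any immature library, and Iigp1 is lowest of all in mature replicate 1 (0.07 FPKM).

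The FPKM of the 10 genes added up to 172, 170 and 163 in immature replicates 1 to 3 and to 205, 228, 193 and 226 in mature replicates 1 to 4. Over all genes FPKM added up to 381707 in mature replicate 3 and to 327714 to 337706 in the other libraries. Sums of mature replicate 3 are therefore not on the same scale as the others, and its 193 cannot be set directly against the immature sums. Gbp2 alone made up 52.9% to 54.3% of the sum in immature and 59.3% to 61.1% in mature libraries. Without Gbp2, the other 9 genes added up to 80.5, 80.0 and 74.4 FPKM in immature libraries. In mature libraries they added up to 81.8, 92.7, 77.1 and 88.0 FPKM. The groups overlapped only through mature replicate 3, whose sum is not on the same scale. Mature replicates 1, 2 and 4 lay above every immature sum. The share of Gbp5 was 1.93% to 2.2% in immature and 7.19% to 8.51% in mature libraries, and that of Gbp7 was 6.14% to 6.89% and 0.816% to 1.25%.

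To ask whether these GTPases go with the mature state, the 4 mature libraries were compared with the 3 immature ones by edgeR's quasi-likelihood test over 17461 genes, and a gene was called with the criteria of the study, an adjusted p under 0.05 and a log2 fold change of 1 or more in either direction. All 10 genes passed the filter on low counts, Iigp1 among them with 29 to 316 counts. Among these, Gbp5 was called higher and Gbp7 lower, that is 2 of 10, where 23.1% of all tested genes were called (13.2% higher and 9.95% lower). By adjusted p alone, Gbp2 and Gbp4 joined Gbp5 and Gbp3 and Irgm2 joined Gbp7, 6 of 10 against a background of 46.1%. The groups did not overlap in CPM for 7 of the 10, against 52.1% of all tested genes. The median log2 fold change of the 10 was 0.07, and that of all tested genes was 0.055. As a family the 10 genes therefore had about as many calls as the background, in opposite directions.

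Gbp5, whose product promotes NLRP3 inflammasome assembly, lies on the plus strand of chromosome 3 from 142493978 to 142522344 (ENSMUSG00000105504). Its level was 28.3, 24.3 and 27.5 CPM in immature replicates 1 to 3 and 112, 130, 104 and 130 CPM in mature replicates 1 to 4. Every mature library was above every immature library by a wide margin, and mature replicate 3 was the lowest of the 4. Gbp5 rose 4.46-fold, from a mean of 26.7 CPM (SD 2.15, n = 3) to one of 119 CPM (SD 13.0, n = 4), which is a log2 fold change of 2.16 ± 0.11 (SE, adjusted p = 1.5e-06 by edgeR). The 8 genes of the mature dendritic cell list were higher in the same libraries, and their part in the rise of Gbp5 was not tested.

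Gbp7, whose product is known for bringing oxidase and autophagy components to vacuoles, is the next gene on the same strand, 7997 bp beyond the end of Gbp5 (ENSMUSG00000040253, chromosome 3 from 142530342 to 142550149). It had 69.4, 65.4 and 73.6 CPM in immature replicates 1 to 3 and 9.76, 14.0, 11.3 and 16.7 CPM in mature replicates 1 to 4. All mature libraries were low, with mature replicate 1 the lowest and replicate 4 the highest. Gbp7 fell to 18.6% of the immature level, a log2 fold change of -2.42 ± 0.17 (SE, adjusted p = 8.2e-06 by edgeR). The 8 macrophage markers were lower in the same libraries, and their part in the fall of Gbp7 was not tested. In the table Gbp7 overlaps the pseudogene Gm43802 by 637 bp on the same strand, and Gm43802 had at most 5 counts in a library. Within a library, the ratio of the FPKM of Gbp5 to that of Gbp7 was 0.345, 0.314 and 0.316 in immature replicates 1 to 3 and 9.77, 7.90, 7.80 and 6.58 in mature replicates 1 to 4. The more abundant of these neighbours was thus Gbp7 in each immature library and Gbp5 in each mature library.

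Gbp2, a prenylated GBP that coats pathogen vacuoles, ends the chromosome 3 cluster (ENSMUSG00000028270, chromosome 3 from 142620602 to 142638008). It was at 260, 252 and 260 CPM in immature and 321, 344, 330 and 364 CPM in mature replicates, in order of replicate number. The groups did not overlap and the difference was small, 1.32-fold (log2 fold change 0.40 ± 0.075 SE, adjusted p = 0.00247 by edgeR). Gbp3 (ENSMUSG00000028268, chromosome 3 from 142560026 to 142573209) differed by a like amount in the other direction. It had 85.2, 79.3 and 81.0 CPM in immature and 57.5, 61.1, 63.9 and 68.1 CPM in mature libraries, and the groups did not overlap. Its log2 fold change was -0.39 ± 0.082 (SE, adjusted p = 0.00490 by edgeR). Both genes stayed below the criterion on fold change.

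Gbp4 and Gbp8 belong to the GBP cluster on the minus strand of chromosome 5. Gbp4 (ENSMUSG00000079363, from 105115767 to 105139586) was at 25.8, 26.4 and 21.4 CPM in immature and 43.3, 48.8, 33.7 and 46.9 CPM in mature libraries. No libraries of the groups overlapped, and mature replicate 3 was nearest to the immature level. The log2 fold change was 0.82 ± 0.15 (SE, adjusted p = 0.00188 by edgeR), under the criterion of 1, and 0.94 without mature replicate 3. Gbp8 (ENSMUSG00000034438, from 105014150 to 105053556) was at 59.8 to 78.2 CPM in immature and 69.5 to 80.5 CPM in mature libraries, which overlapped. A difference in Gbp8 was not shown, with a log2 fold change of 0.15 ± 0.11 (SE, adjusted p = 0.294 by edgeR).

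The regulatory IRGs differed little between the states. Irgm1, which is needed for resistance of mice to mycobacteria (ENSMUSG00000046879, chromosome 11 from 48861968 to 48871683), was at 44.8 to 50.2 CPM in immature and 40.8 to 44.2 CPM in mature libraries, a log2 fold change of -0.18 ± 0.079 (SE, adjusted p = 0.103 by edgeR). Igtp, which encodes Irgm3 (ENSMUSG00000078853, chromosome 11 from 58199556 to 58207591), was at 17.3 to 19.2 CPM and 14.1 to 20.9 CPM, a log2 fold change of -0.01 ± 0.14 (SE, adjusted p = 0.969 by edgeR) whose sign depended on the setting. Irgm2 (ENSMUSG00000069874, chromosome 11 from 58199618 to 58222782) had 25.8, 26.6 and 25.7 CPM in immature and 21.7, 22.4, 16.1 and 20.3 CPM in mature libraries. All mature libraries of Irgm2 were below the immature ones in CPM, replicate 3 the lowest, while in the deposited FPKM the groups of Irgm2 and of Irgm1 overlapped. Its log2 fold change was -0.37 ± 0.12 (SE, adjusted p = 0.0358 by edgeR), and the adjusted p ran from 0.0146 to 0.188 over the alternatives. Igtp and Irgm2 overlap by 7974 bp on the same strand in the table, so the counting could split reads between them. Added together they had 43.3, 44.0 and 44.9 CPM in immature and 35.8, 40.7, 37.0 and 38.7 CPM in mature libraries, with no overlap of the groups.

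Iigp1, which encodes the effector Irga6 that disrupts vacuoles of Toxoplasma (ENSMUSG00000054072, chromosome 18 from 60376027 to 60392634), differed more among mature libraries than between the groups. It had 79, 50 and 71 counts in immature replicates 1 to 3, and 29, 273, 316 and 289 counts in mature replicates 1 to 4. In CPM these were 1.35, 0.899 and 1.10 in immature and 0.440, 4.13, 5.98 and 4.62 in mature libraries. Mature replicate 1 lay below every immature library, and the other 3 mature libraries lay above them. The log2 fold change over all libraries was 1.76 ± 0.70 (SE, adjusted p = 0.0693 by edgeR). Without mature replicate 1 it was 2.14 (edgeR adjusted p = 0.00029), so the call depended on that library, and DESeq2 called the gene on all 7 libraries (log2 fold change 1.78, adjusted p = 0.0103). The cardiac muscle genes followed the same libraries, at 27.3 CPM in mature replicate 1 and 760 to 903 CPM in the others. Irf7, an interferon-induced transcription factor, was at 9.39 to 13.6 CPM in immature cells, 9.67 CPM in mature replicate 1 and 20.2 to 22.2 CPM in mature replicates 2, 3 and 4. Il1b, which encodes the cytokine IL-1β, was at 21 to 33.9, 29.5 and 69.4 to 88.4 CPM in the same libraries. The part of the cardiac genes in the level of Iigp1 was not tested. In all, 675 of 17461 tested genes (3.87%) had mature replicate 1 within or below the immature range and the other 3 mature libraries above it.

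**Figure D2:**
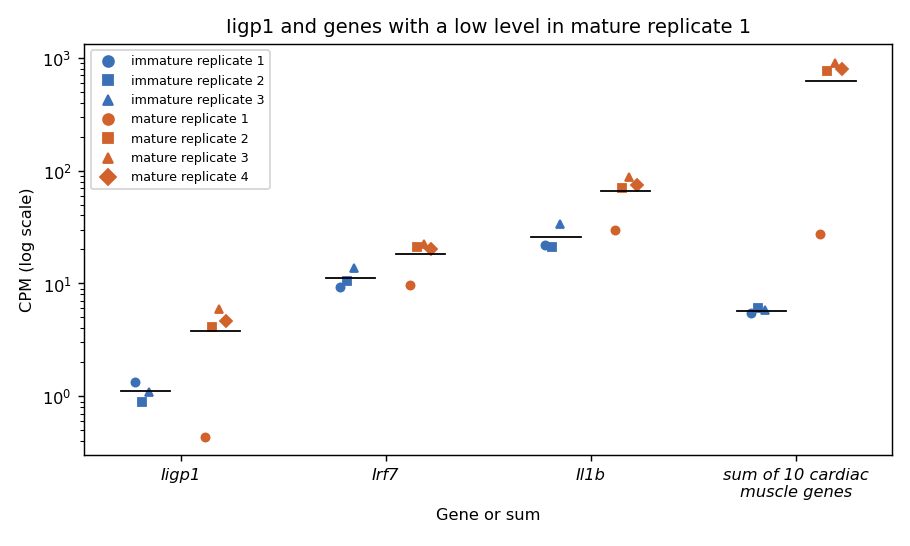
CPM (log axis) of Iigp1, Irf7, Il1b and the sum of 10 cardiac muscle genes in 3 immature (blue) and 4 mature (orange) libraries, with a black line at each group mean. Mature replicate 1 (orange circle) sits at 0.440 CPM for Iigp1 and at 27.3 CPM for the cardiac sum, apart from the other 3 mature libraries in each column.

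Other GTPase genes of these families were taken from a list of 21 genes, further GBPs, IRGs, large inducible GTPases (Gvin1 and Gm4070) and the antiviral Mx proteins. Of the 21, all tested, 4 were called higher and 7 lower, beside 13.2% and 9.95% of all tested genes, and their median log2 fold change was -0.41. With limma on log2(FPKM + 1) the split was 3 higher and 2 lower. Mx1 rose from 58.5 ± 1.71 to 347 ± 54.0 CPM (mean ± SD of 3 and 4 libraries), a log2 fold change of 2.57 ± 0.13 (SE, adjusted p = 1.3e-06 by edgeR), and Mx2 rose from 2.58 ± 0.181 to 13.4 ± 2.31 CPM (log2 fold change 2.37, edgeR adjusted p = 1.1e-05). Tgtp1, an effector IRG, rose 2.63-fold (log2 fold change 1.40 ± 0.13 SE, adjusted p = 3.2e-05 by edgeR). Gm4841 had no count in immature and 4, 21, 21 and 36 counts in mature libraries, a mean at least 6.69-fold higher than a floor of 3 counts per library. Irgc1 (log2 fold change -2.94, edgeR adjusted p = 9.3e-05) and Gbp11 (-2.58, edgeR adjusted p = 3.6e-05) had the largest falls of the 7, followed by Gbp2b (-1.31), Gm4951 (-1.20), Gm5431 (-1.19), 9930111J21Rik2 (-1.05) and Gbp6 (-1.03). The call of Gbp6 was lost without mature replicate 1 (log2 fold change -0.93), that of Gm5431 without mature replicate 3 (-0.97), and that of 9930111J21Rik2 when any 1 of the 7 libraries was left out.

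Several neighbouring genes had log2 fold changes of opposite sign. Along chromosome 3 the order Gbp5, Gbp7, Gbp3, Gbp2b and Gbp2 had log2 fold changes of 2.16, -2.42, -0.39, -1.31 and 0.40, and Gbp2b ends 1422 bp before Gbp2 begins. Along chromosome 5 the order Gbp8, Gbp9, Gbp4, Gbp10, Gbp6 and Gbp11 had 0.15, -0.03, 0.82, 0.31, -1.03 and -2.58. The signs of Gbp8, Gbp9 and Gbp10 were not shown (edgeR adjusted p = 0.294, 0.91 and 0.653). In the IRG cluster of chromosome 11, Tgtp1 was higher between 9930111J21Rik1 (-1.0, edgeR adjusted p = 0.118) and 9930111J21Rik2 (-1.05, edgeR adjusted p = 0.0479). Mature replicate 3 was low for these neighbours, at 2.52 CPM against 11.9 to 13.6 CPM in the other mature libraries for 9930111J21Rik1 and at 7.34 against 23.3 to 26.9 CPM for 9930111J21Rik2.

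**Figure D3:**
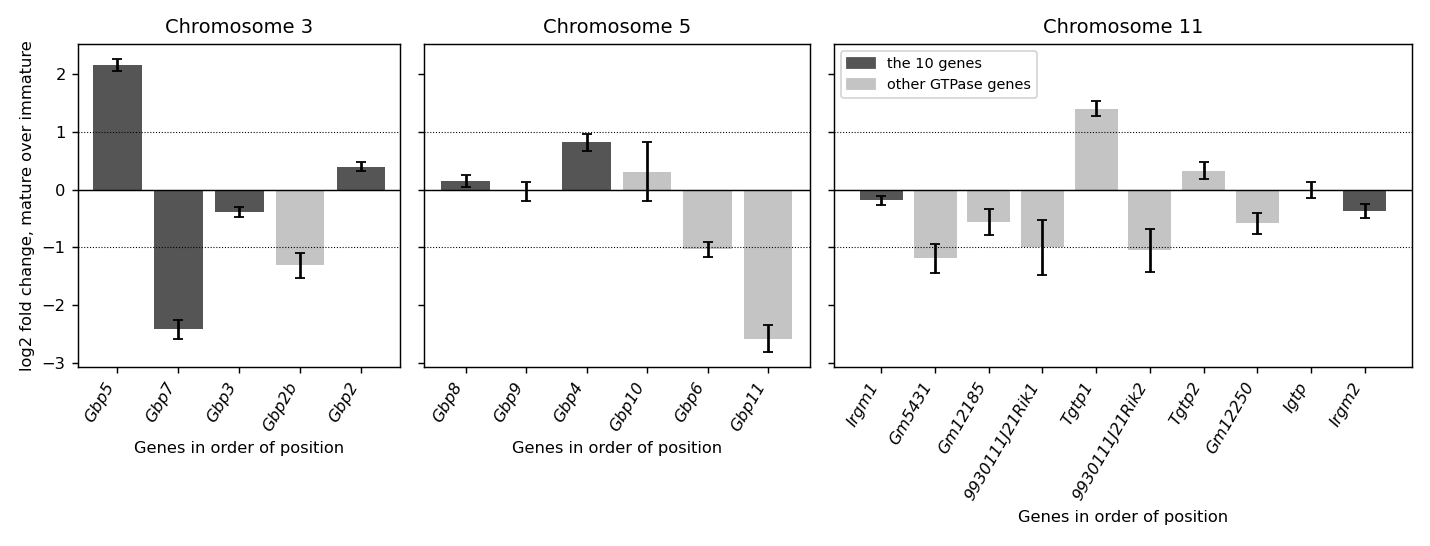
Log2 fold change of mature over immature BMDCs (bars, with the standard error) for GBP genes of chromosomes 3 and 5 and IRG genes of chromosome 11 in order of position, dark for the 10 genes and light for other GTPase genes, with dotted lines at the criterion of 1. Several neighbours differ in sign, such as 2.16 for Gbp5 and -2.42 for Gbp7 beside it.

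Genes of one family can share reads, so the transcripts of GENCODE M21 were cut into all words of 150 bases, the read length. No word of Gbp2, Gbp3, Gbp5, Gbp8, Irgm1 or Iigp1 occurred in another gene, and the share was 0.0254% for Gbp4, 0.437% for Irgm2, 0.739% for Igtp and 8.77% for Gbp7, all of the last with the overlapping Gm43802. Among the other GTPase genes the share reached 96.2% for Gvin1 and 93.4% for Gm4070, which are near copies, 64.9% for Tgtp1 and 68.4% for Tgtp2, 64.5% for 9930111J21Rik1, 44.3% for 9930111J21Rik2, 59.1% for Gbp6 and 66.6% for Gbp10. The values of these copies are therefore uncertain one by one.

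Of the ligands of the pathway that switches on GBPs and IRGs, only Ifng and Ifnb1 were examined, and RNA of both was nearly absent. Other interferon genes were not examined. Ifng had 0 counts in each immature library and 3, 2, 7 and 0 counts in mature replicates 1 to 4, and Ifnb1 had 3 counts in mature replicate 2 and 0 elsewhere, so a difference in either was not detectable at this depth. On a list of 22 genes of interferon signalling, 20 were tested, and 2 were called higher and 1 lower, beside 23.1% called among all tested genes. By adjusted p alone 9 were higher and 3 lower, where 46.1% of all tested genes passed in either direction. The median log2 fold change of the 20 was 0.33.

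Of the receptors, Ifngr1, the ligand-binding chain for interferon-γ, was at 156, 157 and 162 CPM in immature and 85.5, 76.1, 74.4 and 79.6 CPM in mature libraries. The groups were far apart, and the log2 fold change of -1.0 ± 0.076 (SE, adjusted p = 1.1e-05 by edgeR) sat at the edge of the criterion. It fell short of it in 10 of 15 alternatives, among them without immature replicate 3 or mature replicate 2, 3 or 4, at -0.87 to -1.0. Ifngr2 was at 95.5 ± 3.32 and 110 ± 6.56 CPM (log2 fold change 0.21, edgeR adjusted p = 0.0572). Of the chains of the type I interferon receptor, Ifnar1 had a log2 fold change of 0.22 (edgeR adjusted p = 0.17). Ifnar2 had one of -0.3 (edgeR adjusted p = 0.0184). Among the kinases, Jak2 rose from 552 ± 37.4 to 1570 ± 225 CPM, a log2 fold change of 1.51 (edgeR adjusted p = 2.5e-05), and Jak1 had a log2 fold change of -0.19 (edgeR adjusted p = 0.273). Tyk2 was higher but under the criterion on fold change, at 180 ± 8.75 and 305 ± 31.2 CPM (log2 fold change 0.76, edgeR adjusted p = 0.000298).

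Among factors that bind ISREs or related elements, Irf8 was the only gene of the list called. Irf8, a dendritic cell transcription factor, had 106, 109 and 111 CPM in immature and 477, 448, 503 and 445 CPM in mature libraries. The groups were far apart, and a rise of 4.31-fold was the largest change among the 20 tested genes of the list (log2 fold change 2.11 ± 0.082 SE, adjusted p = 4.4e-07 by edgeR). Irf1 (log2 fold change 0.64, edgeR adjusted p = 0.00106), Stat2 (0.57, edgeR adjusted p = 0.0104) and Irf9 (0.49, edgeR adjusted p = 5.04e-04) stayed under the criterion on fold change. Irf2 was lower, at 125 to 132 CPM in immature and 97.2 to 112 CPM in mature libraries (log2 fold change -0.27, edgeR adjusted p = 0.0209), and Irf7 had a log2 fold change of 0.71 (edgeR adjusted p = 0.0679). The inhibitors Socs1 and Usp18 had log2 fold changes of 0.81 and 0.61 (edgeR adjusted p = 0.00975 and 0.00276).

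Genes that act with GBPs and IRGs at vacuoles and in inflammasomes were taken from a list of 24, all tested, of which 3 were called higher and 4 lower, near the 23.1% called among all tested genes, with a median log2 fold change of 0.10. Nlrp3, the sensor that Gbp5 is known to promote, was at 96.3, 87.2 and 85.7 CPM in immature and 18.1, 22.7, 21.9 and 26.8 CPM in mature libraries. It fell in mature cells while Gbp5 rose, with a log2 fold change of -2.01 ± 0.13 (SE, adjusted p = 4.6e-06 by edgeR). Atg7 and Atg3, enzymes of the autophagy conjugation that targets GBPs and IRGs to vacuoles, fell as well, with log2 fold changes of -1.41 (edgeR adjusted p = 1.6e-06) and -1.32 (edgeR adjusted p = 1.4e-05), and Atg5 was at -0.45 (edgeR adjusted p = 0.00240) and Atg16l1 at -0.05 (edgeR adjusted p = 0.652). Atg12, of the same conjugation machinery, was at 0.39 (edgeR adjusted p = 0.0127). Lgals3, a galectin that marks broken vacuoles, had a log2 fold change of -1.15 (edgeR adjusted p = 3.75e-04).

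The 3 that rose were Il18 (log2 fold change 2.07, edgeR adjusted p = 5.86e-04), Il1b (1.36, edgeR adjusted p = 0.0125) and Traf6 (1.14, edgeR adjusted p = 2.67e-04), the first pair being cytokines that inflammasomes mature and the last a ubiquitin ligase. The call of Il1b was lost without immature replicate 1 (edgeR adjusted p = 0.0534) or 2 (0.0570). Pycard, the inflammasome adaptor, had a log2 fold change of -1.0 (edgeR adjusted p = 0.00239) just short of the criterion, and it passed without mature replicate 3 (-1.19) and without immature replicate 1 (-1.06) or 2 (-1.0). Casp4, the LPS-binding caspase that GBPs help to activate, was 1.63-fold higher (log2 fold change 0.71, edgeR adjusted p = 0.00178) and Aim2, a DNA sensor, 1.36-fold higher (0.45, edgeR adjusted p = 0.00430), both under the criterion. Gsdmd, the pore-forming substrate of these caspases, had a log2 fold change of 0.17 (edgeR adjusted p = 0.146).

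**Figure D4:**
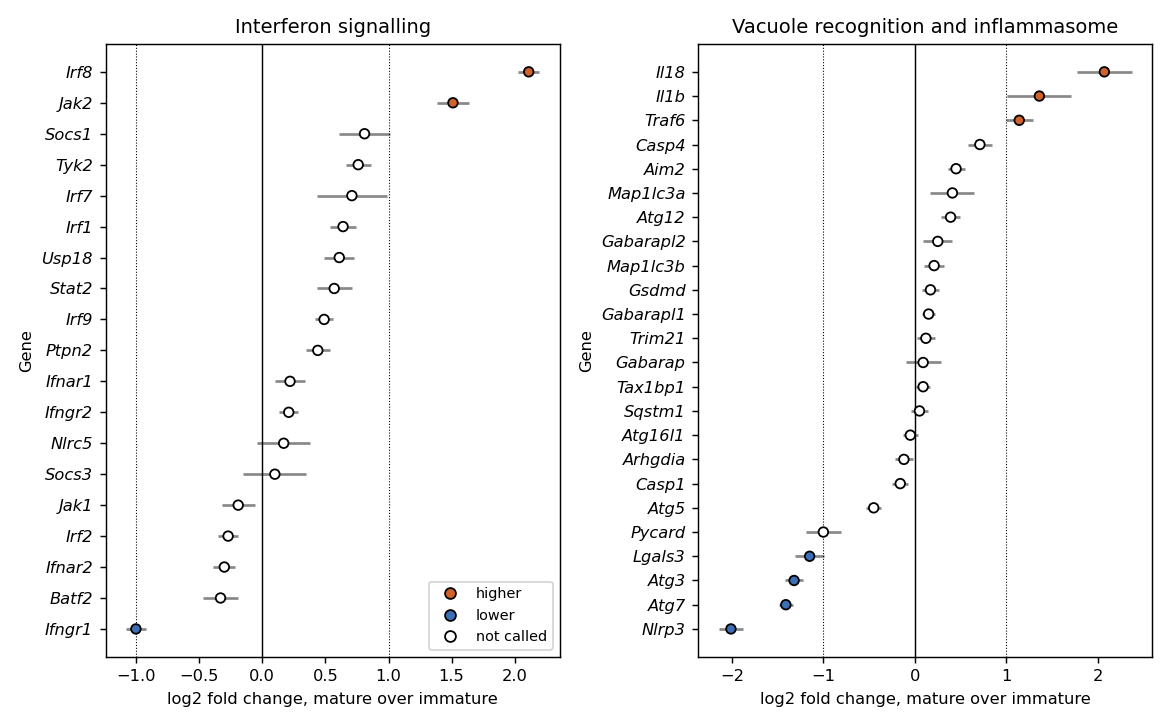
Log2 fold change of mature over immature BMDCs (points, with the standard error) for tested genes of interferon signalling and 24 genes of vacuole recognition and inflammasomes, colored where called higher or lower, with dotted lines at the criterion of 1. Irf8 (2.11) and Il18 (2.07) lie at the top and Ifngr1 (-1.0) and Nlrp3 (-2.01) at the bottom of their lists.

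Of 6 enzymes that attach and process the lipid tail of prenylated proteins, some GBPs among them, 0 were called by edgeR and 0 by DESeq2 or limma. By edgeR 2 had an unadjusted p under 0.05, and both of these also passed by adjusted p alone. They were Zmpste24, at 61.4 ± 2.32 and 35 ± 3.16 CPM (log2 fold change -0.81, edgeR adjusted p = 1.39e-04), and Fntb, at 9.78 ± 0.0807 and 7.25 ± 0.436 CPM (-0.43, edgeR adjusted p = 0.0146). Pggt1b, which supplies the geranylgeranyl transferase subunit, had a log2 fold change of 0.03 (edgeR adjusted p = 0.821).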

How the data were processed

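RNA of 7 libraries of sorted BMDCs, 3 immature and 4 mature, was sequenced from poly(A) libraries of the dUTP type with paired reads of 150 bases. The deposited table gives a read count and an FPKM value per gene and library, both made by the authors. Per the labels, cutadapt 1.9, HISAT2 2.2.1, StringTie 2.1.6, DESeq2 and edgeR were used, with roles not stated, and whether counting used strand is not given in the sources used here. The labels name the build mm9, but 24940 of 28588 genes shared with GENCODE M21 have identical GRCm38 coordinates, which are given here.

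The counts were tested with edgeR 4.0.16 (R 4.3.3): filterByExpr kept 17461 of 28666 genes, TMM scaled the libraries, and the quasi-likelihood test compared mature with immature cells with no covariate. P-values were adjusted by Benjamini-Hochberg over all genes tested. Standard errors were derived from the log2 fold change and the F statistic, whose root is their ratio. CPM are counts per TMM-scaled total. Alternatives were DESeq2 1.42.0, limma 3.58.1 on log2(FPKM + 1) or log2(FPKM + 0.1) where 3 libraries reached an FPKM of 1, no filter or a CPM of at least 1 in 3 libraries, totals without TMM, adjusted p alone, each library left out and a replicate block. Leaving out mature replicates 1 and 3 together was added after seeing the data. On simulated counts with 200 genes changed 4-fold, none of them low in counts, edgeR recovered 180 with 5 false calls. Recovery of smaller changes and of genes with low counts was not simulated.

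The 10 genes and the lists were chosen with earlier results of these data known. All 10 were named, and from each list the called genes plus Ifngr1, Ifngr2, Jak1, Jak2 and main factors of the interferon pathway, Ifng, Ifnb1, Casp4, Gsdmd and Aim2. Irf7, Socs1, Usp18, Pycard, Irf2, Ifnar1, Ifnar2, Tyk2, Atg5, Atg12, Atg16l1, Tgtp2, Gm12185, the prenylation genes, Gbp9, Gbp10 and 9930111J21Rik1 were named after their values were seen. Promoters are from RefSeq (GRCm38.p6) and shared words from GENCODE M21. A gene of the interferon list is counted in the list's totals but not reported here by itself.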

Additional observations from a re-analysis of the deposited data

How the results depend on the processing

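Gbp5 and Gbp7 kept their direction and their call in the 15 alternatives that refitted the data, at log2 fold changes of 1.98 to 2.30 and -2.58 to -1.91, and the other genes of the 10 kept their direction except Igtp. Igtp, at -0.01, was at 0.04 with the CPM filter and with mature replicates 2 and 4 alone, 0.01 with DESeq2 and with no filter, 0.09 without TMM and with limma on log2(FPKM + 0.1), 0.08 with limma on log2(FPKM + 1), and -0.07 to 0.09 with a library left out. The cause was not tested. Iigp1, whose FPKM was too low for the limma filter, ranged from 1.20 to 2.14 over 13 alternatives. By adjusted p alone, a looser rule, calls came to 6 of the 10 genes, 12 for interferon signalling, 12 for vacuoles and inflammasomes, 2 for prenylation and 8053 of all genes. With limma, 5 other GTPase genes (3 higher, 2 lower) were called with a pseudocount of 1 and 8 with 0.1, and of all genes 1768 and 2561, against 4037 by edgeR, and the cause was not tested. With a library left out, calls ran from 2 to 3 of the 10 genes, 8 to 10 of the other GTPases, 2 to 3 for interferon signalling, 7 to 8 for vacuoles and inflammasomes and 3646 to 4052 of all genes, with 0 for prenylation. Without TMM the log2 fold changes of the same 17461 genes moved up by a median of 0.106, against 0.024 with DESeq2 and 0.016 with no filter, and relative to that shift Igtp stayed near 0. Deviations of immature and mature libraries with the same number had r = 0.109, -0.132 and 0.074, within the -0.24 to 0.179 of pairs with different numbers. With so few libraries these values cannot show whether libraries with the same number came from the same culture. With the replicate block 2 of the 10 genes and 3616 of all genes were called. Iigp1 rests on 29 to 316 counts per library, which limits its precision.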

Other observations

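Mature replicate 1 lay within or below the immature range, with the other 3 mature libraries above it, for 6 of 81 tested genes of the GTPase, interferon, vacuole and prenylation lists (7.41%), against 3.87% of all tested genes. The 6 genes were Iigp1, Irf7, Il1b, Gabarapl2, Map1lc3a and Fnta.

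The level of mature replicate 3 relative to the other 3 mature libraries went with gene length, with a Spearman rho of -0.37 across 17436 genes that share these libraries, and the 5th to 95th percentile of its log2 ratio was -1.18 to 0.88. Of the 10 GTPase genes, Gbp4 (-0.46) and Irgm2 (-0.41) had the lowest ratios and Iigp1 (0.94) the highest. The ratio of Iigp1 is raised by mature replicate 1, which at 0.44 CPM lowers the mean it is taken against. The part of gene length in these ratios was not tested.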
